A study of Mus musculus with 6 samples.

Results

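Type I interferon-stimulated genes are the genes that cells switch on when interferon alpha or beta binds its receptor. A list of 40 such mouse genes was matched by gene name to the deposited table of fragments per kilobase of gene scaled to the mapped fragments of each library (FPKM), and all 40 were found among its 54532 genes. Both groups were hearts of C57BL/6 mice collected on day 7 after ligation of the left anterior descending coronary artery, which causes a myocardial infarction (MI). One group of 3 libraries was wild-type (WT). The other 3 libraries were labelled TSLPR KO, that is Crlf2-/-, mice without the receptor for the cytokine thymic stromal lymphopoietin (TSLP). No unoperated heart is among the 6 libraries, so the level of these genes before infarction was not analysed here. According to the study, peri-infarcted and infarcted tissue was taken. Its methods say that WT mice were purchased, and give a sex (male) and an age for these only. Crlf2-/- mice were made by a separate company on the same C57BL/6J background, with no sex or age stated in the methods. Genotype therefore cannot be told apart from the source of the mice, nor from a difference in sex or age if there was one. The labels do not say whether each library came from its own mouse, and p-values measure the spread between these libraries only.

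Type I interferons bind a receptor made of the chains Ifnar1 and Ifnar2, and the kinases Jak1 and Tyk2 then phosphorylate STAT proteins, Stat2 among them. Stat2 and Irf9 belong to a complex that binds the interferon-stimulated response element in the promoters of its target genes. Many of the targets sense or restrict viral RNA, some amplify the response, and others end it. In infarcted hearts the response is known mainly from macrophages and monocytes that take up nucleic acids of dying cells.

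The response element is shown here because it is the sequence that this complex is known to bind. Its pattern, GAAA followed after 2 bases of any kind by a second GAAA (TTTC and TTTC when read on the other strand), was searched on both strands in the 300 bases from 250 before to 50 after each gene's start in the RefSeq promoter sequences of build GRCm38.p6, which held 30 of the 40 genes. Of these 30 promoters, 14 held at least 1 match (46.7%) and 7 held 2 or more, against 943 of all 27025 promoters in the table (3.49%) and 366 of the 11233 promoters of genes tested here (3.26%). Of 52 promoters of other interferon pathway genes outside the list, 19 held a match (36.5%) and 10 held 2 or more. The 10 genes with no entry were Dhx58, Zbp1, Oas2, Usp18, Parp9, Parp14, Mx1, Mx2, Rtp4 and Siglec1. In the windows below, each written 5′ to 3′ on the strand of the gene, capitals mark the match closest before the start, and further matches, some of them overlapping it, stay in lower case.
Isg15, -66 to -57 from the start (chr4:156200865-156200894, minus strand): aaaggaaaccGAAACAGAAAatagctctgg
Ifit1, -85 to -76 (chr19:34640794-34640823, plus strand): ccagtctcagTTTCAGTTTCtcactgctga
Ifit3, -122 to -113 (chr19:34583397-34583426, plus strand): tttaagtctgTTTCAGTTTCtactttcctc
Ifit3b, -154 to -145 (chr19:34607793-34607822, plus strand): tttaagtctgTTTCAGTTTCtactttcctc
Oas3, -75 to -66 (chr5:120777715-120777744, minus strand): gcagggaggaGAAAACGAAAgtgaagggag
Oas1a, -14 to -5 (chr5:120907526-120907549, minus strand): tcgggaaatgGAAACTGAAAatct
Ddx60, -19 to -10 (chr8:61928058-61928086, plus strand): gagcagaagaGAAACCGAAActatccttc
Stat2, -222 to -213 (chr10:128270266-128270295, plus strand): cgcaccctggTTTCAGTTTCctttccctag
Bst2, -124 to -115 (chr8:71537577-71537606, minus strand): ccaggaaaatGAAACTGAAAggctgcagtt
The windows of Ifit3 and Ifit3b, neighbouring copies on chromosome 19, were identical. A match describes these letters only and does not show that a factor binds there.

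Multiplying each FPKM by the gene's length and by a library total gave whole fragments for 100% of the values above 0, within 0.05 of a fragment. That total was not given but was itself fitted to these products so that they came out whole. The fragments on listed genes numbered 18508646 to 18973594 in the WT libraries and 18578175 to 19682428 in the Crlf2-/- libraries. Crlf2 itself (chr5:109554709-109558993, minus strand) had 917, 813 and 707 fragments in the WT libraries and 437, 651 and 667 in the Crlf2-/- libraries, a log2 fold change of -0.52 (SE 0.17, limma adjusted p = 0.521). Its message was therefore lower in all 3 Crlf2-/- libraries but still read, and a total over the whole gene does not show whether the deleted exons were among the fragments. The groups are named by their labels throughout. One protocol field of the labels names retinas, yet of 6 retina markers Crx and Rcvrn were at 0 in every library and the 6 together summed to at most 0.116 FPKM, whereas 8 cardiomyocyte markers summed to 710 to 1957 FPKM.

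All 40 genes passed the filter on low values and had between 96 and 11585 fragments in each library, so none rested on a few fragments. All 40 were on average higher in Crlf2-/- than in WT hearts, with log2 fold changes of 0.21 to 1.46 and a median of 0.84. Of the 15520 genes tested, 49.1% were higher and the median was -0.0042. A log2 fold change of at least 0.5 was seen for 34 of the 40 and for 3.39% of the genes tested, and 13 of the 40 reached at least 1. Non-overlapping groups were found for 32 of the 40 genes, meaning that the lowest Crlf2-/- library exceeded the highest WT library, against 5.24% of the genes tested in this direction. For each of these 32 the exact two-sided permutation test gave p = 0.1, the smallest that 3 against 3 libraries allow.

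No single gene of the list passed the test, which asked of limma an adjusted p of at most 0.05, corrected over all genes tested, together with a log2 fold change of 0.5 or more in either direction. Their limma adjusted p-values ran from 0.109 to 0.929. By the same rule 2 of the 15520 genes tested were called (0.0129%), 1 of them higher (0.00644%), so few genes passed this test. At the same thresholds the study, with another test (DESeq2), reported more genes as different. With limma's voom, 0 of the 40 and 3 of all genes tested were called (0.0193%). An unadjusted limma p under 0.05 was reached by 38 of the 40, all in the higher direction, against 3.22% of the genes tested in that direction. The remaining pair, Cmpk2 and Isg20, had unadjusted limma p-values of 0.0678 and 0.186. Because the list was assembled with earlier results of these data known, no test over the list was made.

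**Figure D1:**
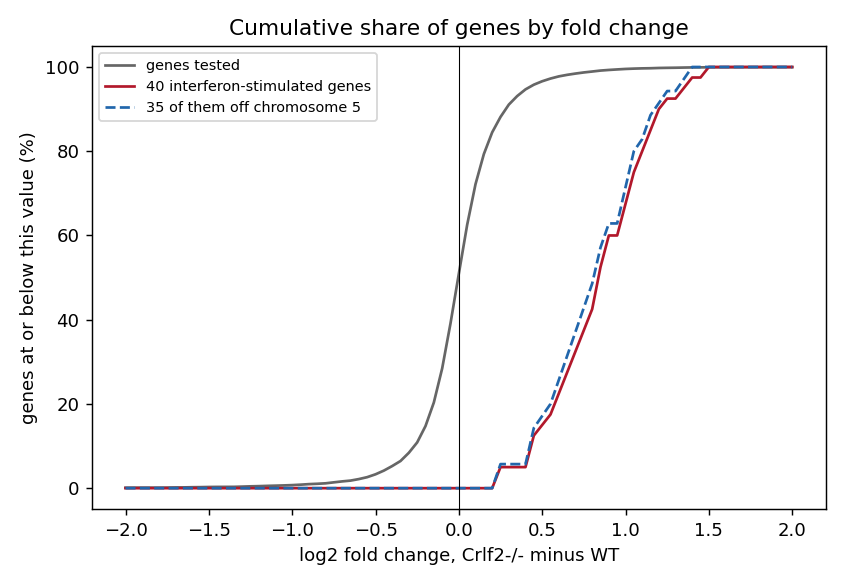
Cumulative share of genes (y axis, percent) at or below each log2 fold change of Crlf2-/- minus WT (x axis, on the log2(FPKM + 0.1) scale) for the 15520 genes tested (grey), the 40 interferon-stimulated genes (red) and the 35 of them that are not on chromosome 5 (blue, dashed). The grey curve crosses its middle near 0, while the red curve starts at 0.21 and the dashed curve runs close beside it.

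The transcription factors of the response come first. Whether they drive the other genes of the list was not tested. Irf7, which amplifies the production of type I interferon (chr7:141262706-141266481, minus strand), measured 16.0, 12.2 and 18.6 FPKM in the WT libraries and 25.5, 53.9 and 46.7 FPKM in the Crlf2-/- libraries. The lowest Crlf2-/- value was above the highest WT value, and the means were 15.6 ± 3.22 and 42.1 ± 14.8 FPKM (SD, n = 3 each). On the log2 scale the difference was 1.38 (SE 0.28, limma adjusted p = 0.223), and leaving out single libraries moved it between 1.17 and 1.70, with limma adjusted p-values of 0.0349 to 0.680. The lowest of these p-values was reached without Crlf2-/- replicate 1, the lowest of its group, where 14 of the 15313 genes then tested were called (0.0914%), 4 of them higher (0.0261%). Stat2 measured 8.83, 7.41 and 10.5 FPKM against 12.2, 16.4 and 15.9 FPKM (log2 fold change 0.73, SE 0.16). Irf9, its DNA-binding partner, measured 10.2, 10.1 and 10.9 FPKM against 13.1, 16.0 and 15.1 FPKM (log2 fold change 0.50, SE 0.11). Neither group of values overlapped the other for any of these 3 genes.

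All 6 genes of nucleic acid sensing were apart between the groups, against 5.24% of the genes tested in the higher direction. Ddx60, a helicase linked to RIG-I signalling (chr8:61928087-62038244, plus strand), measured 1.02, 0.808 and 1.89 FPKM in WT and 2.99, 3.08 and 3.23 FPKM in Crlf2-/- hearts, so the Crlf2-/- values were close together and WT replicate 3 stood nearest to them. Its log2 fold change was 1.34 (SE 0.27, limma adjusted p = 0.216), and leaving out single libraries moved it between 1.10, without WT replicate 2 (limma adjusted p = 0.545), and 1.67, without WT replicate 3 (limma adjusted p = 0.0404). Without WT replicate 3, 5 of the 15318 genes then tested passed (0.0326%), or 0.0196% in the higher direction. Dhx58, which encodes LGP2, a regulator of the RNA sensors (chr11:100694884-100704271, minus strand), measured 4.26, 2.92 and 3.93 FPKM against 6.96, 9.17 and 8.45 FPKM. This was a log2 fold change of 1.14 (SE 0.17, limma adjusted p = 0.109), with means of 3.70 ± 0.698 and 8.19 ± 1.13 FPKM (SD, n = 3 each). Ifih1, which encodes the sensor of long double-stranded RNA MDA5 (chr2:62595798-62646255, minus strand), measured 3.95, 3.60 and 5.13 FPKM against 7.18, 8.27 and 8.19 FPKM (log2 fold change 0.90, SE 0.15). Ddx58, the gene of the sensor RIG-I, measured 9.70, 9.09 and 11.6 FPKM against 15.2, 16.5 and 14.7 FPKM (log2 fold change 0.61, SE 0.12). For both sensors the 3 Crlf2-/- libraries lay near each other. Zbp1, a sensor of left-handed nucleic acids that can start necroptosis, measured 5.32, 4.33 and 6.86 FPKM against 8.53, 15.4 and 10.9 FPKM (log2 fold change 1.05, SE 0.24). Trim25, a ubiquitin ligase that acts in RIG-I signalling, had the smallest difference of the 6, with 14.98, 13.3 and 14.5 FPKM against 16.7, 16.8 and 17.0 FPKM (log2 fold change 0.25, SE 0.10). Its WT values were already nearly as high as its Crlf2-/- values.

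**Figure D2:**
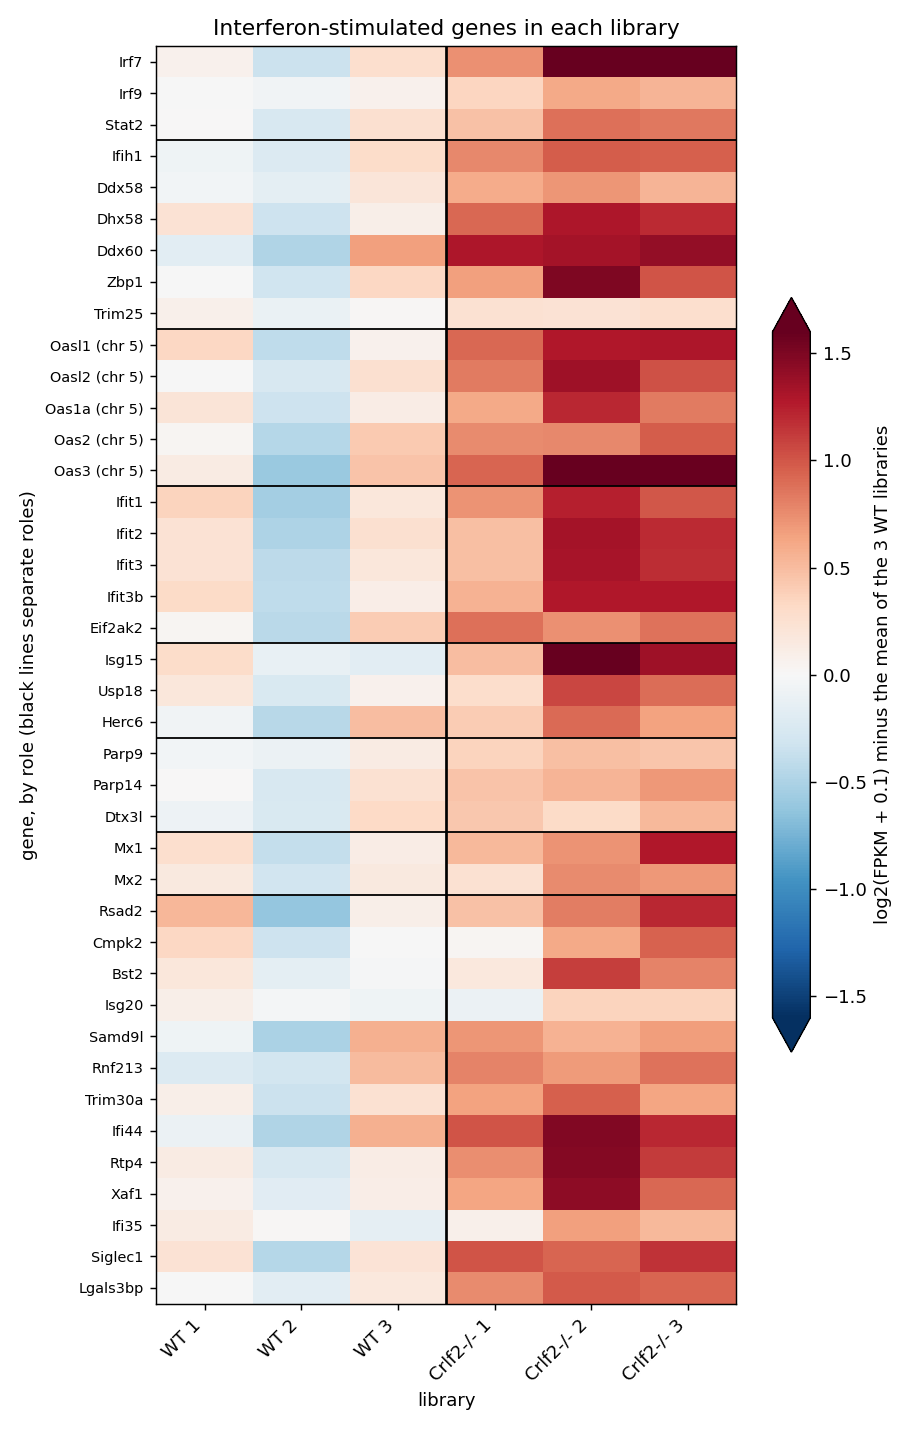
Level of each of the 40 genes (rows, grouped by role) in each library (columns), as log2(FPKM + 0.1) minus the mean of the 3 WT libraries, after scaling between libraries. Red is above and blue below the WT mean, with colours ending at the arrow ends of the scale. Red fills the 3 Crlf2-/- columns except for single cells of Crlf2-/- replicate 1, and WT replicate 2 is the bluest column.

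The OAS proteins answer double-stranded RNA by making short oligoadenylates, a signal that leads to the breakdown of RNA. All 5 OAS genes of the list lie on chromosome 5, which also carries Crlf2, and in all 5 the groups did not overlap. The share of the genes tested with such groups in the higher direction was 5.24%. Oas3, whose product responds to long double-stranded RNA (chr5:120753098-120777661, minus strand), had the largest log2 fold change of the 40 genes, 1.46 (SE 0.32, limma adjusted p = 0.254). It measured 2.13, 1.27 and 2.71 FPKM in WT and 3.77, 7.50 and 5.97 FPKM in Crlf2-/- hearts, with means of 2.04 ± 0.727 and 5.75 ± 1.87 FPKM (SD, n = 3 each), and leaving out single libraries moved its log2 fold change between 1.17 and 1.73. Oas1a (chr5:120896256-120907521, minus strand) measured 15.6, 10.9 and 14.8 FPKM against 20.6, 31.5 and 24.3 FPKM (log2 fold change 0.88, SE 0.19). Oas2 (chr5:120730333-120749853, minus strand) measured 5.04, 3.64 and 6.68 FPKM against 8.39, 8.53 and 9.77 FPKM (log2 fold change 0.83, SE 0.20). These 3 genes form one cluster, 11.2 to 11.3 Mb from Crlf2. The OAS-like genes lie in a second cluster 5.34 to 5.36 Mb from it. Oasl1, an OAS-like protein that lacks synthase activity and holds back translation of Irf7 (chr5:114923240-114937915, plus strand), measured 3.996, 2.41 and 3.35 FPKM against 6.05, 7.91 and 7.89 FPKM (log2 fold change 1.16, SE 0.20). Its neighbour Oasl2 (chr5:114896936-114912234, plus strand) measured 11.3, 9.66 and 13.7 FPKM against 20.3, 29.5 and 23.3 FPKM (log2 fold change 1.07, SE 0.17, limma adjusted p = 0.132).

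Leaving out the 5 genes on chromosome 5 changed little in the description of the list. Of the 35 genes on other chromosomes all 35 were higher in Crlf2-/- hearts, 33 had an unadjusted limma p under 0.05, and the groups did not overlap for 27. Their median log2 fold change was 0.82, against 1.07 for the 5 on chromosome 5. Of the 99 genes tested within 5 Mb of Crlf2, 5.05% had an unadjusted limma p under 0.05, with a median log2 fold change of 0.021. From 5 to 15 Mb it was 15 of 198 genes (7.58%), and 7 of 190 (3.68%) once the 8 OAS family genes tested there were left out. The rest of chromosome 5 and all other chromosomes gave 6.27% and 6.58%. Groups that did not overlap, with Crlf2-/- higher, were found for 6.06% of genes within 5 Mb and 10.6% from 5 to 15 Mb. That share was 6.84% from 5 to 15 Mb without the OAS genes, 4.27% on the rest of chromosome 5 and 5.21% on all other chromosomes. The OAS genes are high in these data, so leaving them out lowers both shares. A part of the neighbourhood of Crlf2 in the difference was not tested.

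**Figure D3:**
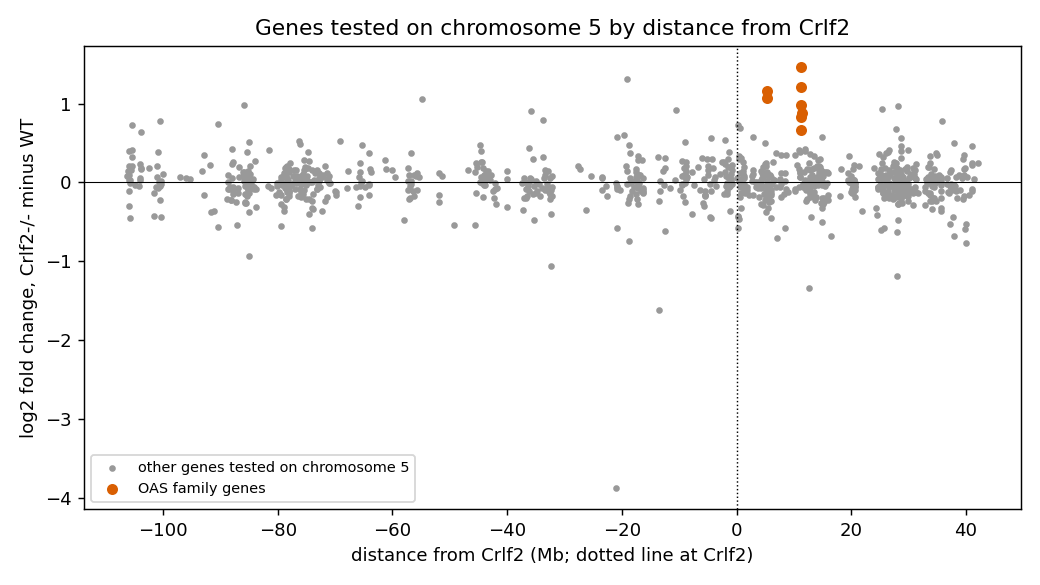
Log2 fold change of Crlf2-/- minus WT (y axis) of the genes tested on chromosome 5 against their distance from Crlf2 in Mb (x axis, Crlf2 at the dotted line), with OAS family genes in orange and other genes in grey. The 8 OAS genes lie between 0.66 and 1.46, above most of the grey points beside them, which scatter around 0. The lowest grey point is Jchain, an antibody chain gene of plasma cells, at -3.88.

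IFIT proteins bind foreign RNA ends, and PKR, the product of Eif2ak2, stops translation when it meets double-stranded RNA. Ifit1 measured 23.5, 12.6 and 20.9 FPKM in WT and 30.2, 43.9 and 36.5 FPKM in Crlf2-/- hearts (log2 fold change 0.99, SE 0.24). Ifit2 measured 14.9, 9.10 and 15.3 FPKM against 17.7, 32.5 and 29.1 FPKM (log2 fold change 1.00, SE 0.27). Ifit3 measured 33.7, 21.8 and 32.6 FPKM against 39.99, 72.4 and 65.4 FPKM (log2 fold change 1.00, SE 0.25). In all of these WT replicate 2 was the lowest library and Crlf2-/- replicate 1 stood nearest to the WT libraries without reaching them. Ifit3b, the near-identical copy whose reads the counting may have divided with Ifit3, measured 8.03, 4.96 and 7.04 FPKM against 9.65, 16.1 and 15.9 FPKM (log2 fold change 1.04, SE 0.24). Eif2ak2 measured 7.27, 5.34 and 9.57 FPKM against 13.2, 12.0 and 13.1 FPKM (log2 fold change 0.82, SE 0.19), and here Crlf2-/- replicate 1 was the highest library. Limma adjusted p-values of these 5 genes were 0.287 to 0.376.

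Isg15 encodes a ubiquitin-like protein that is attached to other proteins, Herc6 the mouse ligase that attaches it, and Usp18 the protease that removes it and that also damps signalling from the interferon receptor. Isg15 measured 40.4, 31.0 and 29.6 FPKM in WT and 46.6, 109 and 85.4 FPKM in Crlf2-/- hearts. Its means were 33.7 ± 5.88 and 80.5 ± 31.7 FPKM (SD, n = 3 each), a log2 fold change of 1.18 (SE 0.29, limma adjusted p = 0.324). Crlf2-/- replicate 1 was 1.04 log2 units below the mean of the other two Crlf2-/- libraries, the widest such gap in the list. Usp18 measured 7.50, 5.62 and 6.95 FPKM against 8.08, 14.1 and 12.4 FPKM (log2 fold change 0.75, SE 0.21), again with replicate 1 just above the WT libraries. Herc6 measured 1.34, 1.01 and 2.02 FPKM against 1.88, 2.71 and 2.24 FPKM (log2 fold change 0.65, SE 0.25), and its groups overlapped. Of the annotated exon bases of Herc6, 13.7% are shared with another transcript on the same strand, as are 13.9% of those of Rtp4, and 16.8% of those of Ifi35 are shared with an antisense gene.

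Parp9 and Dtx3l form a complex of an ADP-ribosyltransferase family protein with a ubiquitin ligase, and Parp14 adds single ADP-ribose units to proteins. Their differences were the smallest of the groups by role, with a median log2 fold change of 0.42. Parp9 measured 9.79, 9.53 and 11.2 FPKM against 12.9, 14.2 and 13.7 FPKM (log2 fold change 0.42, SE 0.10). Parp14 measured 8.33, 7.00 and 9.93 FPKM against 11.4, 12.2 and 13.5 FPKM (log2 fold change 0.56, SE 0.14), and for both genes the groups did not overlap. Dtx3l measured 8.09, 7.36 and 10.9 FPKM against 11.6, 10.8 and 12.4 FPKM (log2 fold change 0.42, SE 0.15), with 1 WT library above the lowest Crlf2-/- library. The genes Parp9 and Dtx3l lie head to head on opposite strands and share 458 exon bases. Whether the counting used the strand is not given in the sources used here, so the reads of those bases cannot be assigned to one of them.

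The Mx genes encode antiviral GTPases. Of these, Mx1 is known to be disrupted in C57BL/6 mice, and Mx2 is annotated as a polymorphic pseudogene. Mx1 measured 3.26, 2.07 and 2.96 FPKM in WT and 3.91, 4.55 and 6.73 FPKM in Crlf2-/- hearts (log2 fold change 0.84, SE 0.24). Mx2 measured 1.69, 1.23 and 1.71 FPKM against 1.82, 2.66 and 2.52 FPKM (log2 fold change 0.57, SE 0.20). In both genes the groups were apart, by little in Mx2, and Crlf2-/- replicate 1 was the lowest of its group.

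Of the 13 other effectors, 11 had an unadjusted limma p under 0.05 and 7 had groups that did not overlap. The shares of the genes tested in the higher direction were 3.22% and 5.24%. Lgals3bp, a secreted glycoprotein that binds galectins (chr11:118392751-118402092, minus strand), measured 87.5, 79.5 and 99.0 FPKM in WT and 149, 174 and 167 FPKM in Crlf2-/- hearts. Its log2 fold change was 0.89 (SE 0.13, limma adjusted p = 0.109), with means of 88.7 ± 9.81 and 163 ± 13.4 FPKM (SD, n = 3 each), and it stayed between 0.81 and 0.97 when single libraries were left out. The groups lay far apart relative to the spread within them. Siglec1, a sialic acid receptor found on macrophages, measured 6.51, 4.08 and 6.53 FPKM against 11.3, 10.8 and 12.5 FPKM (log2 fold change 1.03, SE 0.19). Rtp4, a chaperone of membrane receptors, measured 14.96, 11.6 and 15.02 FPKM against 23.0, 38.5 and 29.8 FPKM (log2 fold change 1.11, SE 0.19). Ifi44 measured 3.71, 2.86 and 5.94 FPKM against 8.06, 11.3 and 9.25 FPKM (log2 fold change 1.23, SE 0.25). Crlf2-/- replicate 2 was the highest library for Rtp4 and Ifi44, as it was for Xaf1, a gene linked to apoptosis, with 4.74, 4.06 and 4.95 FPKM against 7.11, 12.5 and 8.66 FPKM (log2 fold change 0.99, SE 0.20). Trim30a, a ubiquitin ligase that restrains Toll-like receptor signalling, measured 17.3, 12.9 and 19.3 FPKM against 25.3, 31.6 and 25.0 FPKM (log2 fold change 0.74, SE 0.17). Rnf213, a large ubiquitin ligase, measured 8.12, 7.80 and 13.6 FPKM against 16.4, 15.3 and 17.3 FPKM (log2 fold change 0.78, SE 0.20). In both of these the groups did not overlap, although WT replicate 3 came within reach of the Crlf2-/- libraries for Rnf213.

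The groups overlapped for the remaining 6 effectors. Samd9l, a restriction factor that acts on translation, measured 12.0, 8.99 and 18.9 FPKM against 20.6, 18.8 and 20.1 FPKM (log2 fold change 0.64, SE 0.24). Bst2, the gene of tetherin, which holds budding viruses at the cell surface, had the highest FPKM of the list, with 135, 108 and 119 FPKM in WT and 135, 261 and 208 FPKM in Crlf2-/- hearts (log2 fold change 0.69, SE 0.23). In Bst2 it was Crlf2-/- replicate 1 that did not leave the WT range, and in Samd9l it was WT replicate 3 that reached into the other group. Rsad2, which encodes viperin, measured 9.32, 4.21 and 6.93 FPKM against 8.96, 11.6 and 14.98 FPKM (log2 fold change 0.83, SE 0.29). Ifi35 measured 10.5, 9.83 and 8.77 FPKM against 10.2, 15.3 and 13.8 FPKM (log2 fold change 0.42, SE 0.16). Both had Crlf2-/- replicate 1 below 1 WT library. Cmpk2, a nucleotide kinase gene, ranged from 3.96 to 6.26 FPKM in WT and from 5.08 to 9.59 FPKM in Crlf2-/- hearts (log2 fold change 0.53, SE 0.25). Isg20, an RNA exonuclease gene, ranged from 8.07 to 8.97 and from 7.83 to 10.9 FPKM (log2 fold change 0.21, SE 0.14, limma adjusted p = 0.929), the smallest difference of the 40.

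**Figure D4:**
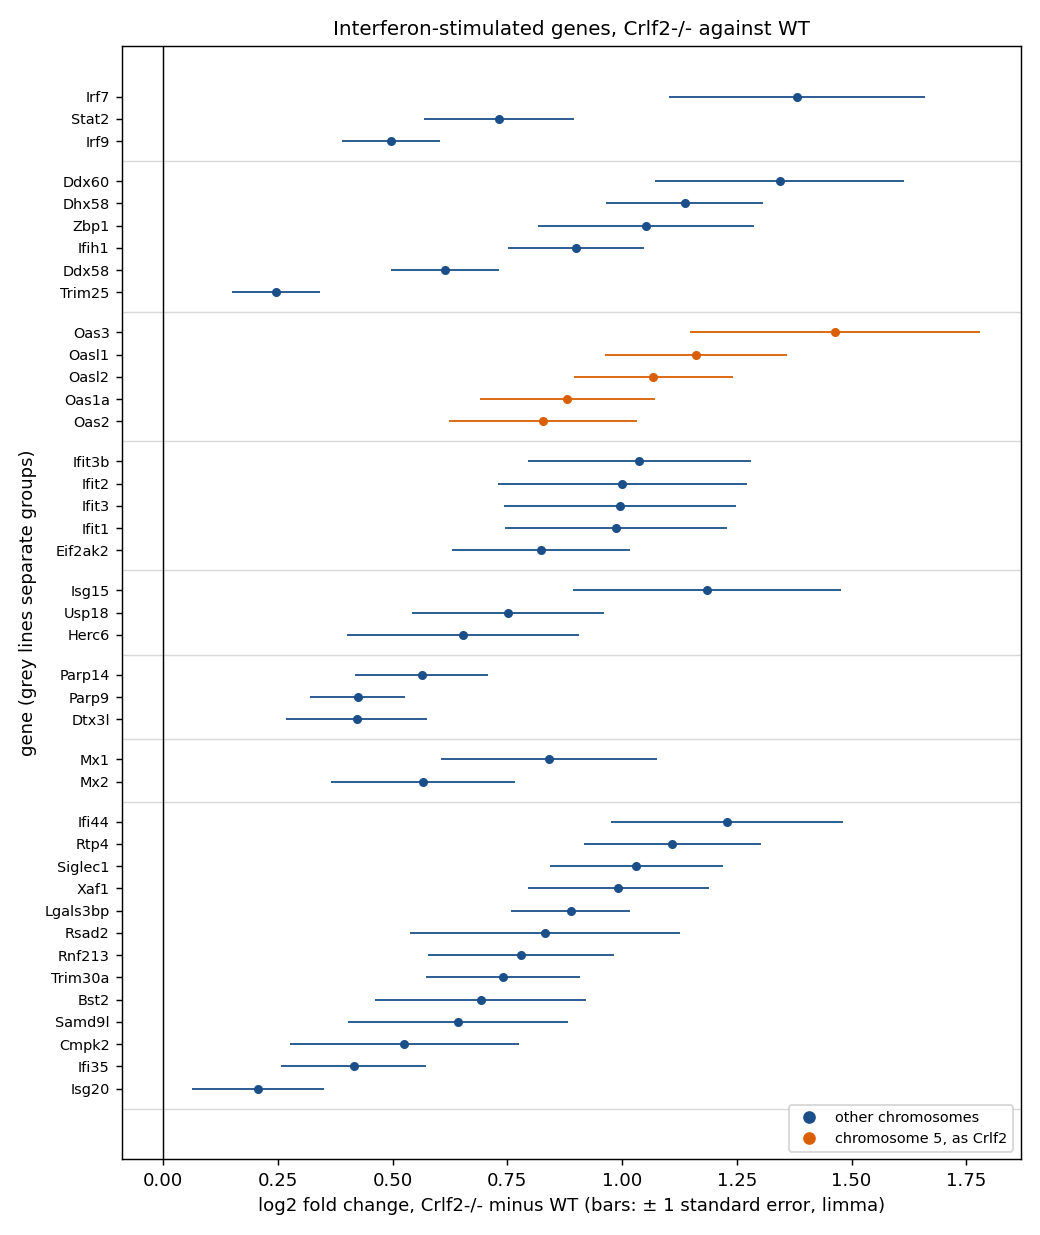
Log2 fold change of Crlf2-/- minus WT (x axis) of each of the 40 genes, grouped by role, with bars of 1 standard error from limma on either side. Genes on chromosome 5 are orange. Every point lies right of 0, from 0.21 for Isg20 to 1.46 for Oas3.

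The libraries of a group did not carry the difference equally. Relative to the WT mean, the median over the 40 genes was 0.0918, -0.325 and 0.182 log2 units in WT replicates 1, 2 and 3 and 0.599, 0.959 and 0.933 in Crlf2-/- replicates 1, 2 and 3. Over the genes tested the same medians lay between -0.0129 and 0.00934. WT replicate 2 was the lowest WT library for 37 genes, and Crlf2-/- replicate 1 was the lowest Crlf2-/- library for 33. Crlf2-/- replicate 1, which also had the fewest Crlf2 fragments, was above every WT library for 34 of the 40 genes, replicate 2 for 38 and replicate 3 for 40. Within the list, replicate 1 was at least 0.5 log2 units below the mean of the other two for 14 genes and within 0.2 for another 14. Isg15, Irf7, Oas3, Ifit2, Bst2 and Ifit3 were among those furthest below, by 0.77 or more. Ddx58, Ddx60, Trim25, Eif2ak2, Samd9l, Rnf213 and Siglec1 were among those within reach, at differences of -0.07 to 0.09. Without single libraries the median log2 fold change of the 40 genes was 0.64 to 1.00, and 30 to 37 of them had an unadjusted limma p under 0.05. The median was lowest without WT replicate 2.

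Genes with a match to the response element had a median log2 fold change of 0.89 (14 genes, 0.61 to 1.46), and those with a promoter in the table and no match had 0.72 (16 genes, 0.21 to 1.38). The ranges overlapped widely. Irf7 was among the genes without a match in the window searched.

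Other genes of the pathway were read from fixed lists of 65 genes, of which 39 passed the filter. Of these 39, 26 were higher and 13 lower, 7 were higher and 1 lower at an unadjusted limma p under 0.05 (3.22% of the genes tested were higher at that level), none was called, and the median log2 fold change was 0.078. No interferon gene passed the filter on low values, so none entered the limma test. Of 21 interferon genes 15 had no fragment in any library, including all 13 listed Ifna genes with a number in their name. A count of 0 allows up to 3 fragments per library. For Ifnb1, the beta interferon, WT replicates 1 and 2 had 1 fragment each and the other libraries 0. Ifng, the gene of interferon gamma, a product of T and NK cells, was read by 7, 9 and 4 fragments in the WT libraries against 3, 1 and 2, or 0.235, 0.321 and 0.141 FPKM against 0.104, 0.0331 and 0.0685 FPKM. It was thus lower in each Crlf2-/- library than in any WT library (exact two-sided permutation p = 0.1, the smallest possible), on few fragments. For the type I interferons a difference was not detectable at this depth.

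The receptors and signalling genes were divided in direction. Of 29 receptor, signalling, sensing and inhibitor genes 18 were higher and 11 lower, with a median log2 fold change of 0.041. Ifnar1 measured 18.5, 18.5 and 18.3 FPKM against 18.9, 17.8 and 17.9 FPKM (log2 fold change -0.01, SE 0.09), and Ifnar2 also overlapped, at 0.04. Ifngr1, a chain of the interferon gamma receptor, was lower in each Crlf2-/- library, with 67.2, 63.0 and 65.4 FPKM against 51.4, 53.0 and 50.4 FPKM (log2 fold change -0.33, SE 0.10, limma adjusted p = 0.457). Tlr9, an endosomal DNA sensor, measured 4.27, 4.68 and 7.40 FPKM against 7.32, 7.78 and 10.1 FPKM (log2 fold change 0.64, SE 0.22, limma adjusted p = 0.554), with overlapping groups. None of the 5 feedback inhibitors, Socs1 and Socs3 among them, had an unadjusted limma p under 0.05.

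Further OAS genes were also on average higher. Oas1g, a close copy of Oas1a, measured 3.28, 1.76 and 2.46 FPKM against 4.97, 6.56 and 5.76 FPKM (log2 fold change 1.21, SE 0.22, limma adjusted p = 0.15). Oas1b measured 1.92, 1.23 and 1.72 FPKM against 2.40, 4.02 and 3.54 FPKM (log2 fold change 0.98, SE 0.23), and Oas1c had a log2 fold change of 0.66 (SE 0.23). For these 3 genes the groups did not overlap, against 5.24% of the genes tested in the higher direction. Reads of such close copies may be divided among them. Oas1e and Oas1f had no fragments, and Oas1d and Oas1h too few to test. Among 6 tested targets known to answer more to interferon gamma, Irgm1, a GTPase of cell-autonomous defence, measured 17.8, 16.8 and 20.7 FPKM against 23.8, 29.5 and 26.8 FPKM (log2 fold change 0.53, SE 0.12), and Igtp had a log2 fold change of 0.28 (SE 0.11). The other four, Ciita, Cxcl9, Nlrc5 and Gbp2, had unadjusted limma p-values above 0.05, and the median of the 6 was 0.18.

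**Figure D5:**
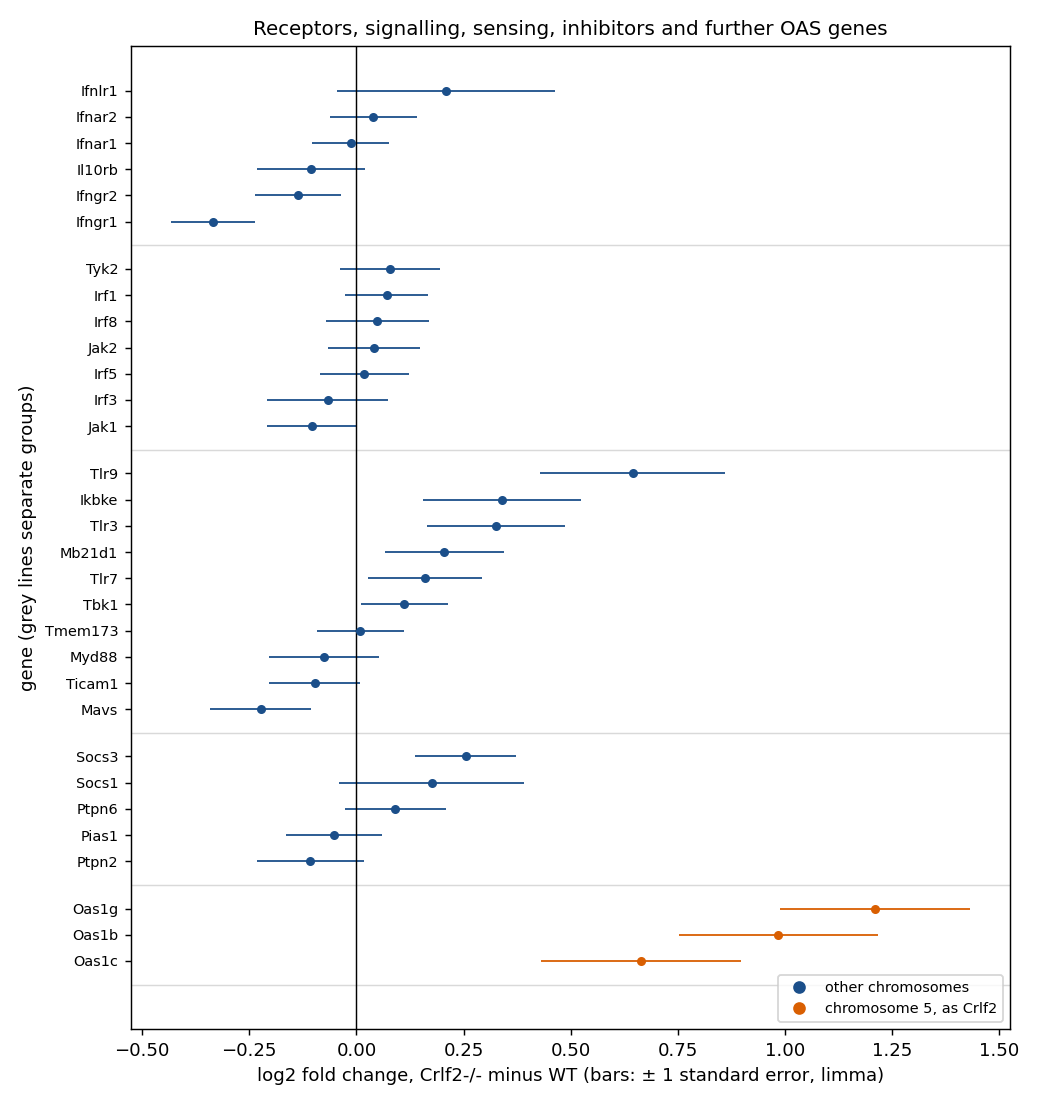
Log2 fold change of Crlf2-/- minus WT (x axis) of genes for interferon receptors, signalling, nucleic acid sensing, feedback inhibitors and further OAS genes, in that order from the top, with bars of 1 standard error from limma on either side. Most points of the upper 4 blocks scatter around 0, with Tlr9 at 0.64 furthest to the right among them, and the 3 further OAS genes on chromosome 5 (orange) lie between 0.66 and 1.21.

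Markers of cell types were read in the same libraries, and in bulk tissue fewer cells of a type and less RNA per cell cannot be told apart. The 9 macrophage markers summed to 2347 to 4197 FPKM in WT and 2776 to 3429 FPKM in Crlf2-/- hearts, and 1 of them, Fcgr1, had an unadjusted limma p under 0.05, with a log2 fold change of 0.58. Adgre1, the gene of F4/80, had a log2 fold change of 0.02. Among the 9 markers 7 were on average higher and 2 lower, and the groups did not overlap for 1 in each direction. The median log2 fold change of these markers was 0.097. The 5 monocyte markers summed to 68.7 to 83.0 against 91.6 to 132 FPKM, and Ly6c2, Plac8 and Ms4a4c had groups that did not overlap, with log2 fold changes of 0.57, 0.52 and 1.08. Such groups in the higher direction were found for 5.24% of the genes tested. Ms4a4c and Ly6c2 are themselves known to respond to interferon. Plac8 lies on the same chromosome as Crlf2, at -8.98 Mb from it, and a part of this position in its difference was not tested. Ccr2, the receptor that brings monocytes to the heart, had a log2 fold change of 0.09. The 6 markers of plasmacytoid dendritic cells, a main source of type I interferon, summed to 59.3 to 73.8 against 26.7 to 66.5 FPKM. Most of this sum was Cox6a2, which is also a muscle gene, with 52.0, 67.4 and 63.4 FPKM against 18.2, 36.4 and 57.9 FPKM. The median log2 fold change of the list was 0.00097, and Siglech, their defining marker, measured 0.526, 0.314 and 0.608 against 0.373, 0.494 and 0.551 FPKM. All 7 T cell markers were lower in each Crlf2-/- library than in any WT library, summing to 16.9 to 23.8 against 8.11 to 10.2 FPKM. In this lower direction 1001 of the 15520 genes tested had groups that did not overlap. For the 8 cardiomyocyte markers the median difference was -0.57 log2 units with overlapping sums of 1021 to 1957 against 710 to 1343 FPKM, and the 5 red blood cell markers were lower in each Crlf2-/- library, with sums of 226 to 370 against 84.9 to 161 FPKM. The part of these cell types in the difference of the 40 genes was not tested.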

How the data were processed

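RNA of 3 WT and 3 Crlf2-/- hearts on day 7 after MI had been sequenced on a NovaSeq instrument from poly-A mRNA. According to the methods, reads were trimmed with fastp, aligned with HISAT2 and counted with featureCounts; the submitters' processing notes name HISAT2 2.0.5 and the builds mm10 and hg38. The deposited FPKM values, computed by the authors from counts, gene length and library total, are the only unit used. The positions of all 40 genes equal those of GENCODE M21 (GRCm38). Fragments were worked out from FPKM, length and a library total fitted to the same values. Genes entered the test with 10 or more fragments in 3 or more libraries and a total of 15 or more, which left 15520. FPKM were scaled by trimmed means of M values (factors 0.993 to 1.01). Log2(FPKM + 0.1) was then tested with limma 3.58.1 (trend and robust, R 4.3.3) and Benjamini-Hochberg adjustment. Genes were called at the study's thresholds, adjusted p at most 0.05 and absolute log2 fold change at least 0.5. The study applied these thresholds with another test, DESeq2, so the numbers called here are not the study's. Printed levels are the FPKM as deposited, and fold changes on the log2(FPKM + 0.1) scale understate those of low genes. The script was tested on simulated data. Values in every library are given for genes of the list with an unadjusted p under 0.05, non-overlapping groups or a place on chromosome 5, and pathway genes are named where their unadjusted p was under 0.05 or they had no fragments; the receptor chains, further interferon gamma targets, inhibitors, cell markers and Jchain were named after their values were seen. Some genes counted in the pathway lists are not reported here. Members and lists were chosen with earlier results of these data known. Alternatives covered scaling, filter, pseudocount, test, replicate block, left-out libraries and the fold threshold.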

Additional observations from a re-analysis of the deposited data

How the results depend on the processing

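All 40 genes stayed above 0 under every alternative, and no result changed direction. The number of genes called among all tested was 2, and it was 6 with no filter on low genes, 1 with at least 10 fragments in every library, 3 with voom and 4 with the replicate block. Leaving out single libraries gave 1 to 14, with 14 without Crlf2-/- replicate 1, 5 without WT replicate 3 and 1 without WT replicate 1, WT replicate 2 or Crlf2-/- replicate 3; the cause was not tested. The number of interferon-stimulated genes called was 0 in the analysis reported and 0 to 1 without single libraries: Ddx60 passed without WT replicate 3 and Irf7 without Crlf2-/- replicate 1. All other alternatives gave 0. The count with an unadjusted limma p under 0.05 was 38 and ranged from 30 to 37 without single libraries, or 25 to 32 of the 35 off chromosome 5, whose median log2 fold change then ran from 0.63 to 0.95. Of 640 comparisons of single genes with an alternative, 638 kept their side of the threshold, at log2 fold changes of 0.13 to 1.73.

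The labels number the libraries 1 to 3 in both groups, but the correlation of deviations from the group means between libraries of one number was -0.0163, 0.115 and 0.120 for the 3 numbers, and no pairing was assumed. With the replicate block 0 of the 40 genes were called and 37 had an unadjusted limma p under 0.05. With 3 libraries a group, exact tests cannot go below p = 0.1, and depth limits the interferon messages, at most 9 fragments per library, while the 40 genes had at least 96.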

Other observations

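Marker lists not described above were also measured. The 6 neutrophil markers summed to 16.9 to 29.6 FPKM in WT and 18.5 to 25.9 FPKM in Crlf2-/- hearts, and none had an unadjusted limma p under 0.05. The 5 NK cell markers summed to 6.18 to 6.22 against 3.47 to 5.92 FPKM, yet 3 of them were on average higher and 2 lower. Their median log2 fold change was 0.15, and the groups did not overlap for 1 marker in each direction. The 5 B cell markers summed to 5.28 to 7.43 against 4.32 to 8.65 FPKM. The 6 fibroblast markers summed to 4889 to 5901 against 5868 to 5986 FPKM, and the 5 endothelial markers to 122 to 144 against 117 to 123 FPKM.

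A few further interferon messages had fragments. Ifnz, an interferon zeta gene, was read by 2, 2 and 1 fragments in the WT libraries against 2, 3 and 4. Ifnab and Ifnk had 1 fragment each, both in Crlf2-/- replicate 3, and Ifnl3 had 1 in WT replicate 1.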
